A study of Mus musculus with 6 samples.

Results

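Transcripts of 9 mouse genes whose proteins carry out nonsense-mediated mRNA decay or form the exon junction complex were measured in primary motoneuron cultures: Upf2, Upf3a, Upf3b, Smg1, Smg5, Smg6, Magoh, Rbm8a and Casc3. They were taken by gene symbol, as a named set and not by a threshold on measured values, from the 39174 genes listed in every library, and each symbol matched 1 row. The cultures came from CD-1 mice of the genotype Nmd-/- (3 libraries) or Nmd+/+ (3 libraries), and the labels give no treatment, culture time or age and do not describe the lesion. Nmd here is the neuromuscular degeneration allele of Ighmbp2, the gene mutated in the human disease SMARD1 (spinal muscular atrophy with respiratory distress), and it shares its letters with nonsense-mediated decay by coincidence. Ighmbp2 encodes a helicase of the same superfamily as Upf1, the central helicase of nonsense-mediated decay, and the study by its title asks how β-actin mRNA is translated in motoneurons deficient in Ighmbp2. No label states that the replicates of a genotype came from separate animals or cultures. The p-values here therefore describe the spread among these libraries, part of which may be technical. Xist and fibroblast genes, given below, differed between libraries of the same genotype, so these were not all repeats of 1 RNA sample.

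Nonsense-mediated decay destroys mRNAs on which a ribosome stops too early, and it also sets the level of a share of normal mRNAs. During splicing the exon junction complex, built from Eif4a3, Magoh, Rbm8a (also called Y14) and Casc3 (also called Mln51 or Barentsz), is left just upstream of each exon junction. If a ribosome terminates well before such a junction, Upf3b and Upf2 link the complex to Upf1, the kinase Smg1 phosphorylates Upf1, and Smg6 and Smg5 bind the phosphorylated form and bring about cleavage or removal of the mRNA's ends. In neurons the exon junction complex also travels with dendritic and axonal mRNAs, and loss-of-function changes in human UPF3B cause intellectual disability.

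Levels are given in FPKM, fragments scaled to transcript length and to the library's mapped fragments, as the authors' Cufflinks tables list them. Depth, estimated from the width of the deposited confidence intervals, was equivalent to 15381970 to 23072372 fragments per library, and 14474 to 14645 genes per library reached 1 FPKM. Ighmbp2 itself measured 0.876, 0.788 and 0.598 FPKM in Nmd-/- libraries, against 1.44, 1.30 and 1.09 FPKM in Nmd+/+ libraries. All 3 Nmd-/- values lay below all 3 Nmd+/+ values, but the difference was not past the threshold over all genes (log2 difference -0.38, SE 0.14, limma adjusted p = 0.9997). Of 7 motoneuron markers in the tables only Isl1 averaged at least 1 FPKM; Chat, the acetylcholine-synthesizing enzyme, was between 0.0144 and 0.0692 FPKM in Nmd-/- libraries and between 0.0112 and 0.0536 FPKM in Nmd+/+ libraries. The 8 radial glia and astrocyte markers together reached 4045 to 5022 FPKM in Nmd-/- and 3225 to 4387 FPKM in Nmd+/+ libraries. Most of this was Vim, at 3420 to 4452 FPKM in Nmd-/- and 2380 to 3645 FPKM in Nmd+/+ libraries. The 8 markers of other spinal neurons reached 138 to 260 and 125 to 274 FPKM. The levels below are thus those of mixed cultures with low motoneuron markers, in which fewer cells of a type and less RNA per cell cannot be told apart. The libraries numbered 2 stand apart: 6 fibroblast genes summed to 174 FPKM in Nmd-/- 2 and 141 FPKM in Nmd+/+ 2, against 3.05 to 3.52 FPKM in the other Nmd-/- and 2.22 to 2.34 FPKM in the other Nmd+/+ libraries. Xist was near 0 in Nmd-/- 3 (0.143 FPKM) and Nmd+/+ 2 (0.155 FPKM) and between 225 and 273 FPKM in the other 4 libraries.

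No member passed the threshold of an adjusted p of 0.05 (limma on log2(FPKM + 1), Benjamini-Hochberg over 14611 genes), where 0% of all genes tested passed. At an unadjusted p under 0.05 the count was likewise 0 of 9 members, beside 0.445% of all genes (65). With the replicate number as a block the counts were again 0 of 9 members at either threshold, beside 0% of all genes at the adjusted and 4.87% at the unadjusted threshold. For none of the 9 did the genotypes' ranges separate, beside 2.67% of all genes (1.76% with Nmd-/- higher and 0.91% with it lower). The absolute log2 differences of the members had a median of 0.02 and a maximum of 0.13, and the median over all genes was 0.08. The members' limma adjusted p-values were all 0.9997. The log2 differences below compare means of log2(FPKM + 1), and the added 1 makes them smaller than log2 ratios of FPKM, most of all in low genes.

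**Figure D1:**
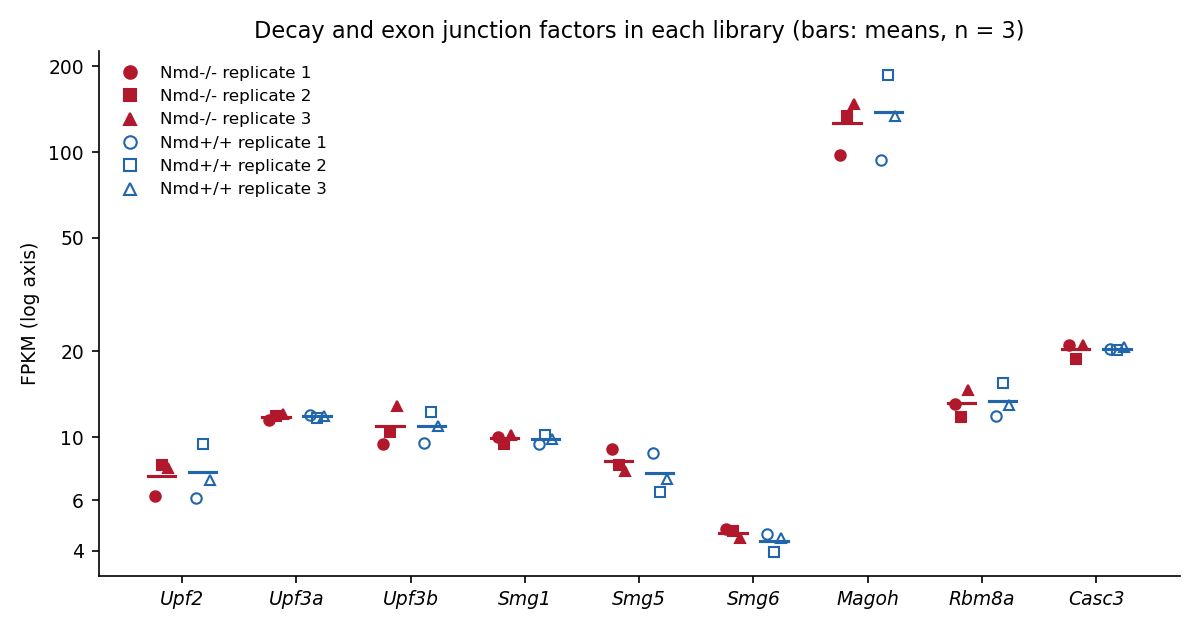
FPKM (log axis) of the 9 members in each library, Nmd-/- to the left of Nmd+/+ within each gene, with 1 point per library, its shape giving the replicate number, and a bar for each genotype's mean. Magoh lies near 132 FPKM and Smg6 near 4.47 FPKM, and in every gene the points of the genotypes overlap.

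Set in order of level over the 6 libraries, Magoh was highest at a mean of 132 FPKM, followed by Casc3 (20.4), Rbm8a (13.3), Upf3a (11.8), Upf3b (10.9), Smg1 (9.86), Smg5 (7.86), Upf2 (7.43) and Smg6 (4.47 FPKM). The library ranges of Rbm8a and Upf3a, Upf3a and Upf3b, Upf3b and Smg1, and Smg5 and Upf2 overlapped, so these neighbours did not differ beyond their spread. Magoh and Casc3, Casc3 and Rbm8a, Smg1 and Smg5, and Upf2 and Smg6 did not overlap. The median member, at 10.9 FPKM, was close to the median gene tested, at 11.03 FPKM.

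Upf2 is the scaffold that holds Upf1 and a Upf3 protein together (chr2:5951469-6056703 in the deposited tables, GRCm38). It measured 6.20, 7.96 and 7.79 FPKM in Nmd-/- libraries 1, 2 and 3, against 6.11, 9.47 and 7.07 FPKM in Nmd+/+ libraries. The libraries numbered 1 were lowest in both genotypes and Nmd+/+ 2 was highest, and the ranges overlapped. The log2 difference was -0.03 (SE 0.18, 95% interval -0.45 to 0.40). Replicate number accounted for 85.2% of the variance of Upf2, the largest share among the 9, with means of 6.15, 8.72 and 7.43 FPKM for numbers 1, 2 and 3. Without the libraries numbered 2 its log2 difference was 0.07.

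Upf3a and Upf3b are paralogs, both able to bind Upf2 and the exon junction complex; Upf3b is the more active in decay, and Upf3a, an autosomal gene, has been described both as a weaker activator and as an antagonist. Upf3a lies at chr8:13785615-13798538 and Upf3b at chrX:37091678-37110322. The promoters of both held the palindrome CTCGCGAG, shown here because the 7 member promoters with a RefSeq entry (250 bases before to 50 after the gene start, build GRCm38.p6) held it in no other case. Each stretch of 30 bases is printed on its gene's strand with the palindrome in capitals; Upf3a is from chr8:13785621-13785650 on the plus strand and Upf3b from chrX:37110373-37110402 on the minus strand.
Upf3a: gctgcctagtcCTCGCGAGgcttcgttctc
Upf3b: ggccttaaactCTCGCGAGatctccgggag
In Upf3a the palindrome starts 18 bases after the gene start, and in Upf3b it starts at position -69. On either strand it was present in 302 of 32851 mouse promoters of this length (0.919%). CGCG, which it contains, stood in 7 of 7 member promoters and in 38.0% of all, and neither TATAAA (13.6% of all) nor CCGGAAG (8.86% of all) stood in any of the 7. The motifs were chosen after the sequences had been read, and a match describes these letters and not a binding site.

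Upf3a was the steadiest of the 9. It measured 11.45, 11.86 and 12.06 FPKM in Nmd-/- libraries, against 11.96, 11.67 and 11.87 FPKM in Nmd+/+ libraries. All 6 values lay within 1 FPKM of one another, with the lowest and the highest both in Nmd-/- libraries. Its coefficient of variation over the 6 libraries was 1.86%, and only 4 of the 14611 genes tested had a smaller one. That spread is below the 3.82% of FPKM given by the width of Cufflinks' own confidence intervals for Upf3a (514 to 873 fragment equivalents). Differences between libraries were therefore not resolved beyond this estimation error. The log2 difference was -0.01 (SE 0.11, 95% interval -0.27 to 0.26). Of the 50-base stretches of Upf3a, 2.54% recur among 111 other genes, so a part of its reads may be shared.

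Upf3b varied more. Its levels were 9.43, 10.4 and 12.9 FPKM in Nmd-/- libraries, against 9.54, 12.2 and 10.99 FPKM in Nmd+/+ libraries. Nmd-/- 3 and Nmd+/+ 2, the libraries with almost no Xist, were the highest, and the libraries numbered 1 were the lowest in both genotypes. The log2 difference was 0.00 (SE 0.16, 95% interval -0.38 to 0.37), and it was -0.01 with the Xist level as a covariate. The part of Xist in the spread of this X-linked gene was not tested. Without the libraries numbered 2 the log2 difference was 0.10.

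The ratio of Upf3a to Upf3b averaged 1.10 ± 0.14 in Nmd-/- and 1.10 ± 0.15 in Nmd+/+ libraries (SD, n = 3 each; exact two-sided permutation p = 1, where 3 against 3 libraries cannot go below 0.1). By library it was 1.21, 1.14 and 0.935 in Nmd-/-, against 1.25, 0.954 and 1.08 in Nmd+/+. Upf3a was thus above Upf3b in 4 libraries and below it in Nmd-/- 3 and Nmd+/+ 2. The coding sequences are 63.3% identical over 1181 aligned bases, with no identical run longer than 15 bases.

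Smg1 is the kinase that phosphorylates Upf1 (chr7:118131308-118243637), and its coding sequence of 10974 bases over 63 exons is the longest among the members. It measured 10.04, 9.48 and 10.2 FPKM in Nmd-/- libraries, against 9.48, 10.2 and 9.84 FPKM in Nmd+/+ libraries. The ranges of the genotypes nearly coincided. The log2 difference was 0.01 (SE 0.11, 95% interval -0.26 to 0.28), and it turned to -0.01 with median-of-ratios scaling. At 3.23%, its coefficient of variation was lower than that of all but 67 genes tested.

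Smg5 and Smg6 read the phosphorylation of Upf1: Smg6 is the endonuclease that cuts near the stop codon, and Smg5 helps recruit deadenylating and decapping enzymes. Smg5 (chr3:88336260-88362337) measured 9.11, 7.98 and 7.63 FPKM in Nmd-/- libraries, against 8.83, 6.44 and 7.15 FPKM in Nmd+/+ libraries. The libraries numbered 1 were highest in both genotypes, and each Nmd-/- library exceeded the Nmd+/+ library of its number. Smg5 had the largest log2 difference of the 9, 0.13 (SE 0.15, 95% interval -0.22 to 0.48). Without the libraries numbered 2 it was 0.06.

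Smg6 (chr11:74925823-75164448) was the lowest member and rested on 183 to 521 fragment equivalents per library. It measured 4.75, 4.67 and 4.43 FPKM in Nmd-/- libraries, against 4.56, 3.96 and 4.45 FPKM in Nmd+/+ libraries. Nmd+/+ 2 was the lowest library, and the other 5 lay between 4.43 and 4.75 FPKM. The log2 difference was 0.08 (SE 0.12, 95% interval -0.20 to 0.36), and without the libraries numbered 2 it was 0.02. Smg6 overlaps Srr, which measured 40.3 to 45.6 FPKM in Nmd-/- and 41.9 to 46.3 FPKM in Nmd+/+ libraries, and 2.54% of its 50-base stretches recur in Srr or Gm12333. Because the strand setting of the counting is not given, the share of Smg6 reads that stems from Srr is unknown. The ratio of Smg5 to Smg6 stayed between 1.61 and 1.94 over all 6 libraries.

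Magoh and Rbm8a form the dimer that locks Eif4a3 onto RNA. Each has a close copy in the mouse genome, and the stretches of Magoh and its copy below show how far their reads could be told apart. They are from Magoh (chr4:107879755-107887424, plus strand) and Magohb (chr6:131284388-131293244, minus strand), which encodes a nearly identical protein. Both are coding bases of GENCODE M21 transcripts on GRCm38, 5′ to 3′ in the direction of transcription. Capitals mark bases that differ within the pair, 19 of 120. Positions counted from the first base of the start codon are 228 to 347 in Magoh and 234 to 353 in Magohb.
Magoh: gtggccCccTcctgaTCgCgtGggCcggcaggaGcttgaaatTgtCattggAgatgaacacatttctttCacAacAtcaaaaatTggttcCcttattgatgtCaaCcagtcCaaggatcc
Magohb: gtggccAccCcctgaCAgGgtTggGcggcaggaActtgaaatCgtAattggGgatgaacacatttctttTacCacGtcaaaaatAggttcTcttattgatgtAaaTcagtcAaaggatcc
Over the whole coding sequence Magoh and Magohb were 80.95% identical, with no shared 50-base stretch. Rbm8a (chr3:96629928-96633779 in the deposited tables, plus strand) has as its copy Rbm8a2 on chromosome 1, a single-exon gene named B020018G12Rik in the deposited tables. Their coding sequences were 97.7% identical, and 7.79% of the 50-base stretches of the Rbm8a transcript recur in Rbm8a2. An error-free read of 50 or more exonic bases would therefore belong to Magoh or to Magohb alone, whereas Rbm8a values are uncertain to the extent that reads were shared with Rbm8a2. Rbm8a2 was singled out after its values were seen.

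Magoh was both the highest and the most variable member. It measured 97.4, 133 and 148 FPKM in Nmd-/- libraries, against 93.5, 187 and 133 FPKM in Nmd+/+ libraries. Nmd+/+ 2 was highest, and the libraries numbered 1 were lowest in both genotypes at nearly the same level. Its coefficient of variation of 26.1% exceeded that of 84.8% of the 1000 genes of most similar level. The mean log2 level of the libraries numbered 2 exceeded that of the libraries numbered 1 by 0.72, whereas the log2 difference between the genotypes was -0.09 (SE 0.27, 95% interval -0.73 to 0.55).

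The sign of that value for Magoh rested on single libraries. It was 0.08 without Nmd-/- 1, -0.34 without Nmd+/+ 1, 0.15 without Nmd+/+ 2 and 0.10 without the libraries numbered 2 of both genotypes. Magohb, whose product replaces Magoh in the complex, measured 22.7, 28.6 and 27.2 FPKM in Nmd-/- libraries, against 19.4, 44.3 and 22.3 FPKM in Nmd+/+ libraries. Nmd+/+ 2 was again the highest and Nmd+/+ 1 the lowest. The ratio of Magoh to Magohb lay between 4.22 and 5.98, so Magoh supplied most of the summed level in every library (120, 162 and 175 FPKM in Nmd-/-, against 113, 231 and 156 FPKM in Nmd+/+).

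Rbm8a measured 13.1, 11.8 and 14.7 FPKM in Nmd-/- libraries, against 11.8, 15.5 and 13.0 FPKM in Nmd+/+ libraries. Nmd-/- 2 and Nmd+/+ 1 were the lowest and Nmd+/+ 2 the highest, so the pair numbered 2 differed most, by -0.37 on the log2 scale. The log2 difference between the genotypes was -0.02 (SE 0.15, 95% interval -0.37 to 0.33), and without the libraries numbered 2 it was 0.15. Rbm8a2 was listed at 6.48, 7.83 and 8.34 FPKM in Nmd-/- libraries, against 6.34, 9.70 and 7.32 FPKM in Nmd+/+ libraries. The sum of both was 19.5, 19.6 and 23.0 FPKM in Nmd-/- and 18.2, 25.2 and 20.3 FPKM in Nmd+/+ libraries, with Nmd+/+ 2 highest as for Rbm8a alone. Although their proteins pair one to one, Magoh transcripts were 7.45 to 12.1 times those of Rbm8a per length, lowest in the libraries numbered 1 of both genotypes and highest in Nmd+/+ 2.

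**Figure D2:**
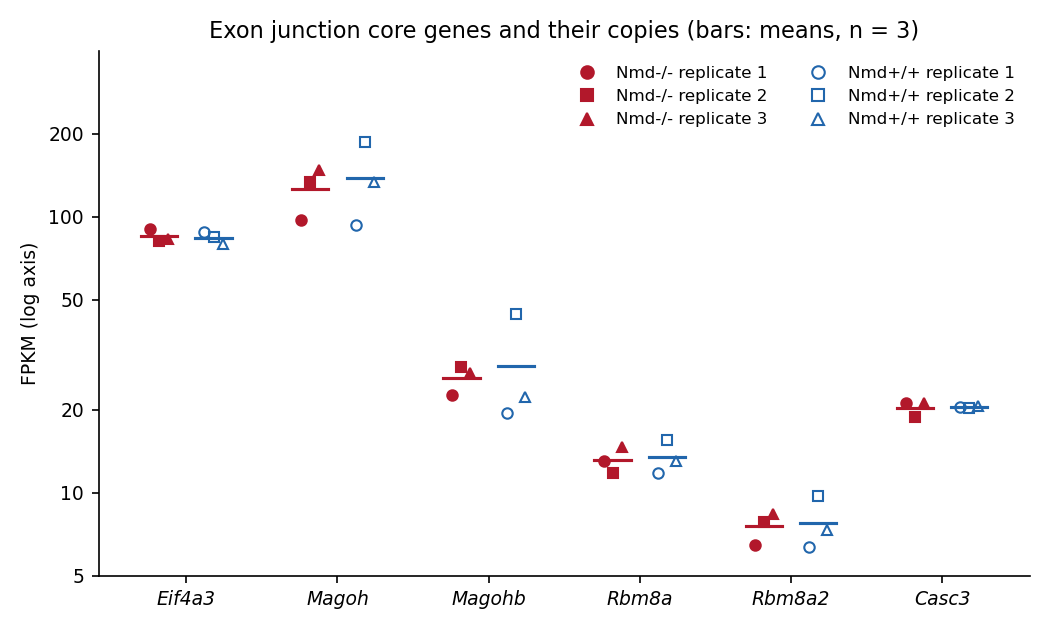
FPKM (log axis) of Eif4a3, Magoh, Magohb, Rbm8a, Rbm8a2 and Casc3, Nmd-/- left of Nmd+/+ within each gene, with 1 point per library, its shape giving the replicate number, and a bar for each genotype's mean. Magoh and Magohb both have their highest point in Nmd+/+ 2 (187 and 44.3 FPKM), while Eif4a3 (79.7 to 90.3 FPKM) and Casc3 (18.8 to 21.1 FPKM) lie close together.

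Casc3, the most loosely attached subunit of the core and known to promote decay of junction-marked mRNAs, lies at chr11:98804905-98833814. It measured 21.1, 18.8 and 21.1 FPKM in Nmd-/- libraries, against 20.5, 20.3 and 20.7 FPKM in Nmd+/+ libraries. Nmd-/- 2 was the lowest, and all Nmd+/+ values lay inside the Nmd-/- range. The log2 difference was -0.01 (SE 0.12, 95% interval -0.29 to 0.26), and the coefficient of variation, 4.198%, was below that of all but 212 genes. In sequence, 11.4% of the 50-base stretches of Casc3 recur in the overlapping antisense gene Gm12359, and without a stated strand setting their reads cannot be told apart. Msl1 overlaps Casc3 as well. Gm12359 was listed at 0.560 to 0.913 FPKM in Nmd-/- and 0.465 to 0.591 FPKM in Nmd+/+ libraries. Eif4a3, the helicase at the centre of the complex, was 3.86 to 4.35 times as abundant per length as Casc3. It measured 90.3, 81.6 and 83.3 FPKM in Nmd-/- libraries, against 88.1, 84.3 and 79.7 FPKM in Nmd+/+ libraries, and 24.4% of its 50-base stretches recur in 3 other genes.

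**Figure D3:**
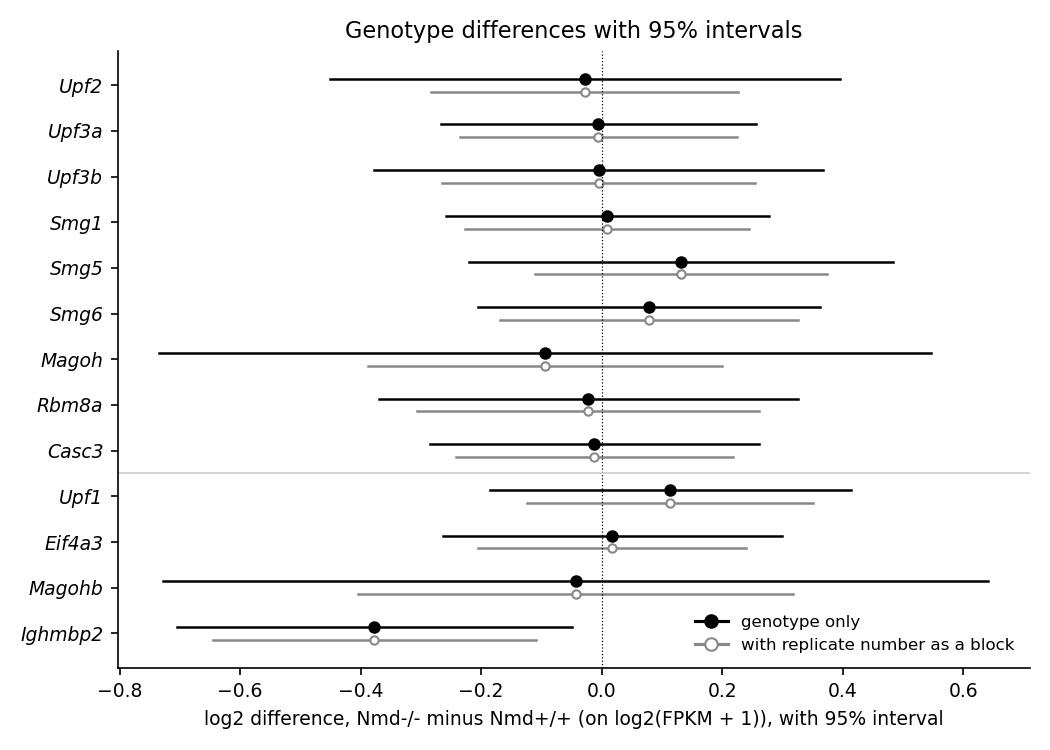
Log2 difference, Nmd-/- minus Nmd+/+, on the log2(FPKM + 1) scale with its 95% interval for the 9 members (above the line) and for Upf1, Eif4a3, Magohb and Ighmbp2, from genotype alone (filled) and with the replicate number as a block (open, grey). Every member's interval contains 0 in both fits; from genotype alone they run from the narrowest, Upf3a (-0.27 to 0.26), to the widest, Magoh (-0.73 to 0.55), and the interval of Ighmbp2 lies below 0 (-0.70 to -0.05).

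The intervals state which changes these libraries could have missed. For Upf3a, Smg1 and Casc3 the limits stayed within 0.30 log2 units of 0 in both directions, and for Magoh a difference of -0.73 would still lie inside. With the replicate number as a block, the interval of Magoh was -0.39 to 0.20. The block rests on a pairing read from these same values, so its intervals may be too narrow. The fit without it counts the variance by replicate number as error, so its intervals may be too wide and its p-values too large. Without the block 0.445% of all genes had an unadjusted limma p under 0.05, and with it 4.87%. An interval that contains 0 does not show that the genotypes had the same level. The median standard error of the members was 0.15 (0.17 over all genes), and with the replicate number as a block it was 0.11 (0.12 over all genes).

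Replicate number, a term with more degrees of freedom than genotype, accounted for a larger share of the variance than genotype in 8 of 9 members, beside 91.6% of all genes. The exception was Smg6, with 30.3% by replicate number and 33.1% by genotype. The median share by replicate number was 60.3% (73.2% over all genes), from 13.2% in Smg1 and 19.8% in Rbm8a to 85.2% in Upf2, and the median share by genotype was 1.39% (5.23% over all genes). In Upf3a, Smg1, Smg6 and Rbm8a the largest share lay with neither. Within pair 1, 7 of 9 members were higher in the Nmd-/- library, beside 49.4% of all genes. Within pair 2 the count was 3 of 9 (52.7% of all genes), and within pair 3 it was 8 of 9 (57.5%). Upf2, Smg1, Magoh, Rbm8a and Casc3, 5 of the 9, were lower in Nmd-/- in pair 2 and higher in pairs 1 and 3, a pattern noticed in these values that 18.6% of all genes showed. By the mean of all libraries 3 of 9 members (Smg1, Smg5 and Smg6) were higher in Nmd-/-, beside 56% of all genes, and with median-of-ratios scaling it was 2 of 9, beside 48.7%. Without the libraries numbered 2 it was 8 of 9, all but Upf3a, beside 55.2% of all genes. Smg5 alone was higher in all 3 pairs (14.9% of all genes were), and no member was lower in all 3 (10.6% of all genes). Xist measured 259 FPKM in Nmd-/- 2 against 0.155 FPKM in Nmd+/+ 2, and 0.143 FPKM in Nmd-/- 3 against 273 FPKM in Nmd+/+ 3. Eif2s3y, a Y-linked gene, ran the other way, at 0 against 21.2 FPKM in pair 2 and 19.6 against 0 FPKM in pair 3. Within pairs 2 and 3 genotype therefore cannot be told apart from sex. In pair 1 Xist was 225 and 226 FPKM. Markers of other cell types also differed between the pairs. The 8 markers of dividing cells summed to 420, 480 and 517 FPKM in Nmd-/- libraries 1, 2 and 3, against 388, 513 and 339 FPKM in Nmd+/+ libraries, with median log2 differences of 0.09, -0.09 and 0.62 in pairs 1, 2 and 3. Markers of the oligodendrocyte lineage ran the other way, with medians of -0.60, 0.07 and -0.74 in pairs 1, 2 and 3 and 0 of 4 higher by mean. Markers of other spinal neurons had medians of -0.08, 0.13 and -0.37, with 2 of 8 higher by mean. Radial glia and astrocyte markers had medians of -0.16, 0.14 and 0.04, and fibroblast genes 0.13, 0.41 and 0.12. The part of sex and of these cell types in the members' differences within pairs was not tested.

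**Figure D4:**
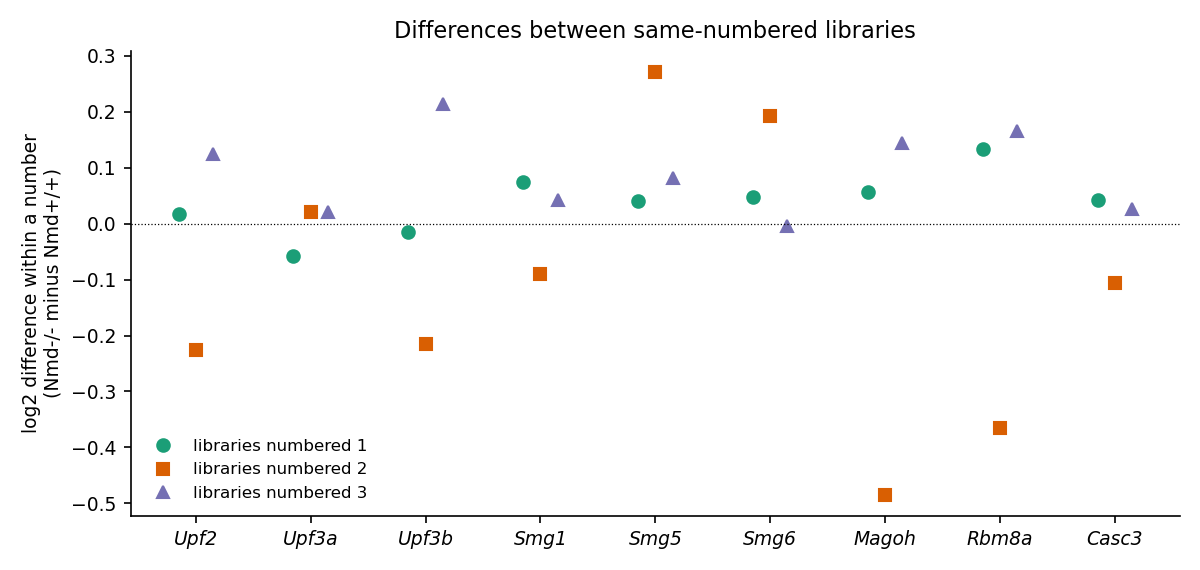
Log2 difference, Nmd-/- minus Nmd+/+, on the log2(FPKM + 1) scale within each replicate number for each member, 1 symbol per pair, with a dotted line at 0. Magoh, Rbm8a, Upf2 and Upf3b lie below 0 in pair 2 (-0.48, -0.37, -0.23 and -0.21) and at or above 0 in pair 3, while Smg5 is above 0 in all 3 pairs.

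The members fell into steadier and more variable genes. Upf3a, Smg1, Casc3 and Smg6 had coefficients of variation of 1.86% to 6.23%, and Rbm8a, Smg5, Upf3b, Upf2 and Magoh of 11.3% to 26.1%. The median was 11.3% for the members and 16.4% over all genes. Among the 1000 genes nearest in level, 0.6% varied less than Smg1, 2.2% less than Casc3 and 3.7% less than Smg6. The width of Cufflinks' confidence intervals gave 2.58% of FPKM for Smg1, 3.15% for Casc3 and 5.35% for Smg6. Their spread was thus not far above estimation error. For the more variable members that error was 2.61% to 3.64%, well below their spread. Both groups hold decay factors as well as subunits of the exon junction complex.

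**Figure D5:**
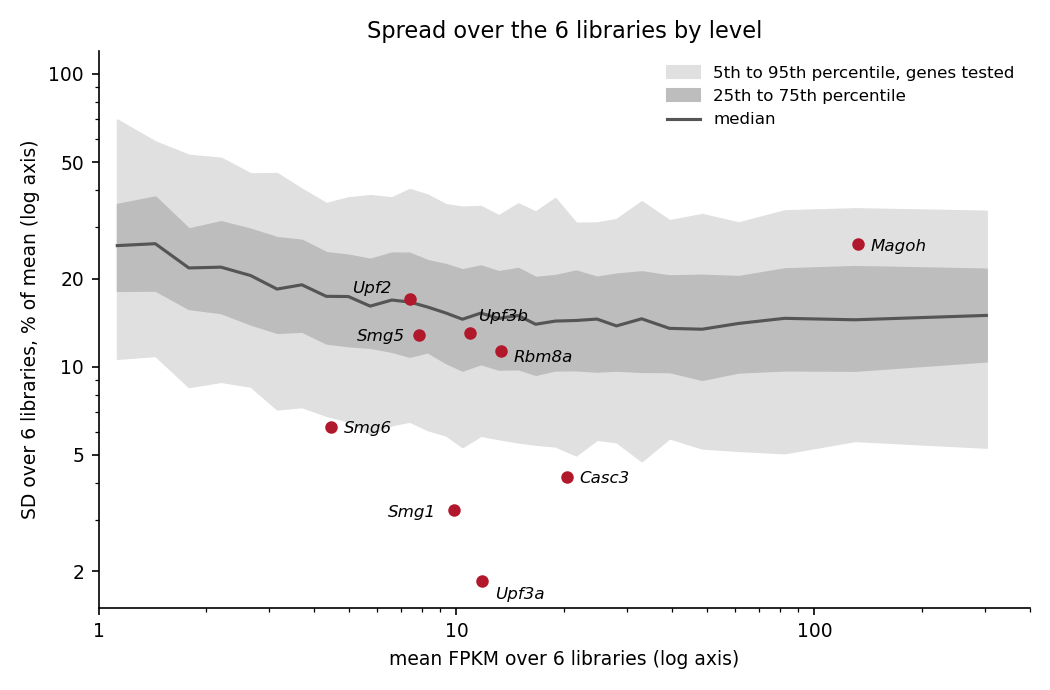
Coefficient of variation (SD as percent of the mean over the 6 libraries) against mean FPKM on log axes, with the median and percentile bands of the 14611 genes tested in grey and the 9 members as points. Upf3a (1.86%), Smg1 (3.23%), Casc3 and Smg6 (6.23%) lie below the outer band, Upf2 lies near the median line, and Magoh (26.1%) lies above the inner band.

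The members' levels were standardized to put every gene on the same scale. They ran from -1.21 to 0.95 in Nmd+/+ 1, -1.85 to 1.54 in Nmd+/+ 2 and -0.18 to 1.36 in Nmd-/- 3. Their mean, a profile that not all members shared, was lowest in Nmd+/+ 1 (-0.38) and highest in Nmd-/- 3 (0.64). The 5 genes whose standardized levels over the 6 libraries lay nearest to this profile were Pot1b (distance 0.570), Ddx46 (0.575), Ipo11 (0.577), Fbxo28 (0.577) and RP24-570C10.6 (0.582), where the median gene lay at 1.005. Pot1b encodes a telomere-binding protein, Ddx46 a spliceosomal helicase and Ipo11 a nuclear import receptor. Ddx46, for example, measured 12.4, 11.9 and 15.3 FPKM in Nmd-/- libraries, against 11.9, 14.3 and 12.4 FPKM in Nmd+/+ libraries. Like Upf3b and Rbm8a, it was high in Nmd-/- 3 and Nmd+/+ 2.

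The members' own transcripts were examined for the features that decay reads. In GENCODE M21 their longest coding transcripts have 5 (Magoh) to 63 (Smg1) exons, with a median of 15 against 9 over 12367 tested coding genes, and 3′ untranslated regions of 148 (Magoh) to 4233 bases (Smg1), with a median of 1261 against 1004. In these transcripts no member has an exon junction more than 50 bases after its stop codon. At such a position an exon junction complex can mark an mRNA for decay. Transcripts annotated as decay substrates were left out when these were chosen, so a low count was partly set by that choice. Such a junction occurs in 0.348% of the tested coding genes. Smg1, Smg5 and Smg6 each have 1 further transcript annotated as a decay substrate, as have 28.5% of those genes. The tables give a level per gene, so the share of such transcripts was not measured.

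The other decay factors gave no call either. Of 15 such factors, 0 passed in either direction, 12 were higher by mean in Nmd-/- (beside 56% of all genes, or 48.7% with median-of-ratios scaling) and the median log2 difference was 0.06 (0.03 with median-of-ratios scaling, and 10 of 15 higher). Upf1 measured 9.97, 9.28 and 9.51 FPKM in Nmd-/- libraries, against 9.96, 8.18 and 8.29 FPKM in Nmd+/+ libraries. Its libraries numbered 1 were equal within 0.01 FPKM and the other Nmd-/- libraries were above their Nmd+/+ counterparts (log2 difference 0.11, SE 0.13). Pnrc2, which links Upf1 to decapping, was at 121 ± 17.2 FPKM in Nmd-/- and 107 ± 10.9 FPKM in Nmd+/+ (SD, n = 3 each), with a log2 difference of 0.18. Ruvbl2, an ATPase that assists assembly of the Smg1 complex, differed by 0.14, and by 0.0082 without Nmd+/+ 3. Pabpc1, the poly(A)-binding protein that opposes decay near a normal stop codon, differed by 0.13, with values of 334, 548 and 435 FPKM in Nmd-/- and 315, 607 and 318 FPKM in Nmd+/+ libraries.

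Of 10 other exon junction factors, 0 passed (0% of all genes did). By mean 7 were higher, beside 56% of all genes, and the median log2 difference was 0.02. With median-of-ratios scaling 5 were higher, beside 48.7% of all genes, and the median was -0.00. Cwc22, which delivers Eif4a3 to the spliceosome, was at 8.58 ± 0.419 FPKM in Nmd-/- and 9.34 ± 0.285 FPKM in Nmd+/+ (SD, n = 3 each), lower in 3 of 3 pairs (log2 difference -0.11). Ddx39b, an RNA helicase of splicing and export, differed by 0.11, and by 0.0065 without Nmd+/+ 3 and 0.26 without Nmd+/+ 1. Of 20 general mRNA decay factors 0 passed and 16 were higher by mean, beside 56% of all genes (median 0.06). With median-of-ratios scaling 15 were higher, beside 48.7% of all genes (median 0.04). With 1 library left out at a time the count higher was 11 to 15. The scaffold of decapping Edc4 differed by 0.16, the decapping enzyme Dcp2 by 0.14 and the deadenylase Cnot7 by 0.02.

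Transcripts reported as decay substrates, which decay factors would act on, were counted as well. Their levels are also per gene, so the share of transcripts open to decay was not measured. The counts below therefore do not measure decay activity. Of 24 listed, 21 were tested and 0 passed (0% of all genes did). By mean 10 were higher in Nmd-/-, beside 56% of all genes, with a median of -0.00. With median-of-ratios scaling 6 were higher, beside 48.7% of all genes, with a median of -0.03. Arc was below 1 FPKM on average, and Snhg15 and Zfas1 were not analysed here. Without the library Nmd+/+ 2 the count higher was 19, and without Nmd+/+ 3 it was 6. The share of all genes higher without these libraries is not given here, so these counts cannot be set apart from a shift of all genes. Gadd45b, a stress-induced gene, had the largest difference of those named: 9.94, 12.7 and 10.95 FPKM in Nmd-/- libraries, against 8.57, 12.8 and 4.97 FPKM in Nmd+/+ libraries. The ranges overlapped, and the log2 difference was 0.40 (SE 0.29) with all libraries, 0.08 without Nmd+/+ 3, 0.68 without Nmd+/+ 2 and 0.60 without the libraries numbered 2 of both genotypes. Smad7, an inhibitor of TGF-β signalling, differed by 0.23 and was higher in 3 of 3 pairs. Ddx5, an RNA helicase of transcription and splicing, also differed by 0.23, and by -0.00 without the libraries numbered 2. Hnrnpl, chosen after its values were seen as the 1 of the 21 substrates tested whose genotypes did not overlap (beside 2.67% of all genes), measured 209, 212 and 220 FPKM in Nmd-/- libraries, against 207, 198 and 186 FPKM in Nmd+/+ libraries.

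Some listed substrates varied with the replicate number, as Magoh did. Gas5, a host of small nucleolar RNAs degraded when it is translated, measured 37.2, 50.9 and 60.1 FPKM in Nmd-/- libraries, against 31.1, 88.4 and 43.5 FPKM in Nmd+/+ libraries. As for Magoh, Nmd+/+ 2 was the highest and the libraries numbered 1 were the lowest. Asns, the asparagine synthetase, reached 125 FPKM in library Nmd-/- 2 and 166 FPKM in library Nmd+/+ 2, but lay between 51.4 and 60.4 FPKM in the other 4 libraries. Gas5 and Asns were chosen after their values were seen.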

How the data were processed

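RNA from primary motoneuron cultures of CD-1 mice was sequenced in 6 libraries, 3 Nmd-/- and 3 Nmd+/+. They were made with a Lexogen kit on total RNA, per the labels' protocols. The authors deposited 1 table of FPKM values per library; Cufflinks 2.2.1, FastQC 0.10.1, Trim Galore 0.4.0, cutadapt 1.8 and SAMtools 1.3 and the build GRCm38 are named in the submitters' processing notes. Not given in the sources used here are the aligner's version, the annotation release and the strand setting. Fragment counts could not be recovered from the FPKM, so no count test was run; fragment equivalents are the squared ratio of FPKM to the standard deviation implied by its deposited confidence interval, and they stand for the authors' estimation error, not for the spread between libraries.

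Genes with a mean of at least 1 FPKM and status OK in all 6 libraries (14611) were tested on log2(FPKM + 1) with limma 3.58.1 with an intensity trend in R 4.3.3, genotype as the only term, and Benjamini-Hochberg adjustment. Variation was described with Python 3.11.15. The test was checked on simulated data with changes far larger than the members' differences. That check does not cover changes of the members' size. The ratio of Upf3a to Upf3b was tested by exact permutation. Libraries with the same number in their titles deviated together from their genotype means (correlations 0.82, 0.70 and 0.39, each highest for its own number), so the numbers were taken to pair the samples; this comes from the values and no label states it. A fit that adds the replicate number as a block, other pseudocounts, filters and scalings, Xist as a covariate, and left-out libraries were the alternatives.

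The members and gene lists were chosen with earlier results of these data known. Genes named were the 9 members, Ighmbp2, Upf1, Eif4a3 and Magohb, in each of the 4 lists the 2 of smallest unadjusted p and the 1 of highest level, and the 5 genes most alike in profile; others are said to be chosen after their values were seen, and so were the overlapping genes. Items withheld from this text are not reported here. Sequences are from GENCODE M21 transcripts (GRCm38) and RefSeq promoters (GRCm38.p6), which had entries for 7 of 9 members (none for Rbm8a and Casc3).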

Additional observations from a re-analysis of the deposited data

How the results depend on the processing

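Of 600 values recomputed under the alternatives, 539 kept their direction or, for a count, stayed within 1.5 times, 49 changed sign and 12 counts moved further; no gene named gained or lost significance. The smallest adjusted p of a member under any of them was 0.691. Leaving out the libraries numbered 2, with or without the replicate block, turned Upf2 to 0.071, Upf3b to 0.10, Magoh to 0.10, Rbm8a to 0.15, Casc3 to 0.035, Magohb to 0.24, Cnot7 to -0.014 and Ddx5 to -0.0014, and 8 members were then higher instead of 3. Median-of-ratios scaling, alone or with the block, turned Smg1 to -0.013 and Eif4a3 to -0.0058 and left 6 decay substrates higher instead of 10; quantile normalization turned Smg1 to -0.016. The cause was not tested.

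The replicate block was fitted because same-numbered libraries deviated together in these values, a pairing that no label states. The block changed no call of a member or list gene (0 genes called with and without it), and Upf2 stood at -0.03 and Smg5 at 0.13 as before. The paired log2 difference of the Upf3a to Upf3b ratio was -0.0001. With the block and without the libraries numbered 2, 34 genes passed, none of them a member or in the 4 lists.

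Leaving out 1 library at a time gave ranges of -0.15 to 0.13 for Upf2, -0.021 to 0.014 for Upf3a, -0.12 to 0.086 for Upf3b, -0.014 to 0.037 for Smg1, 0.04 to 0.24 for Smg5, 0.03 to 0.11 for Smg6, -0.34 to 0.15 for Magoh, -0.10 to 0.077 for Rbm8a and -0.040 to 0.041 for Casc3. It gave -0.27 to 0.31 for Magohb, -0.025 to 0.052 for Eif4a3, -0.047 to 0.44 for Pabpc1, -0.074 to 0.18 for Cnot7, 0.0082 to 0.23 for Ruvbl2, 0.0065 to 0.26 for Ddx39b, 0.0072 to 0.59 for Ddx5, 0.080 to 0.68 for Gadd45b and -0.10 to 0.11 for the log2 difference of the ratio. Members higher by mean numbered 2 to 7, other decay factors 9 to 13 and other exon junction factors 3 to 8. General mRNA decay factors numbered 11 to 15 and decay substrates 6 to 19. The shares of all genes higher in these runs are not given here. With a minimum of 5 FPKM Smg6 was not tested. Among the 9 members the estimation error relative to level was largest for Smg6, at 5.35% of FPKM. Its lowest library value was 183 fragment equivalents.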
